A study of Mus musculus with 10 samples.

Results

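The 10 genes described here mark mast cells and basophils, granulated leukocytes that carry immunoglobulin E (IgE) on their surface. They were chosen by gene symbol, as the probe sets of the array that carry only the symbol Cpa3, Mcpt4, Cma1, Tpsb2, Tpsab1, Mcpt8, Fcer1a, Ms4a2, Gata2 or Hdc. Each of the 10 had 1 probe set, among 35556 probe sets and 19938 genes in all. The samples were melanoma tumour tissue of male mice, 5 of a group labelled Exercise and 5 of a group labelled non-Exercise, with 1 whole-transcript array for each sample. The series title names voluntary exercise and natural killer cells, and the comparison asks which transcripts differ between exercised and non-exercised animals. The sources used here do not give the mouse strain, age, tumour line, duration of exercise or any treatment shared by the groups. The title numbers are used below as array names; whether each stands for an animal of its own, or whether tumours were pooled, is not stated, and p-values then reflect only how far these arrays differ from each other.

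Mast cells mature in tissues, mainly around vessels and in connective tissue of skin and fat, under the growth factor Kit ligand and its receptor Kit. Their granules hold chymases, tryptases and carboxypeptidase A3 bound to the proteoglycan serglycin, together with histamine. Basophils circulate in blood, enter inflamed tissue, share the IgE receptor with mast cells and in the mouse carry a granule protease of their own, Mcpt8. Both are found in small numbers in tumours. In whole-tumour RNA, fewer cells of a type and less RNA per cell cannot be told apart.

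The labelled tissue could be checked from its lineage genes. The 10 measured melanocyte genes, among them Tyrp1, Dct and Pmel, lay between percentiles 78.8 and 99.9 of mean level over all genes, and their mean log2 level lay between 12.63 and 12.72 in the Exercise arrays and between 12.69 and 12.79 in the non-Exercise arrays. Exercise arrays 306, 309 and 310 stood apart by transcripts of hepatocytes. Averaged over 13 measured hepatocyte genes, their log2 levels were 9.11 to 9.68, against 7.26 to 7.64 for the other 7 arrays, and Alb, which encodes albumin, reached 12.28 to 12.97. The main results below are also given without these arrays, which leaves only arrays 300 and 301 in the Exercise group. Across genes, the correlation between arrays ranged from 0.960 to 0.996.

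The promoter sequences of 8 of the 10 genes were found in RefSeq (GRCm38.p6), and those of Tpsb2 and Tpsab1 were not. Of the sequences found, 4 are shown because they belong to granule proteases that did and did not vary together across the samples. Tpsb2, which varied together with Cpa3, is therefore missing from them. Each is the 250 bases before the annotated start, 5′ to 3′ on the strand of the gene, which is the minus strand in all 4. The windows are chr3:20242182-20242431 for Cpa3, chr14:56062311-56062560 for Mcpt4, chr14:55944676-55944925 for Cma1 and chr14:56085198-56085447 for Mcpt8. Capitals mark matches on either strand to AGATAA and likewise to AGATAG, as well as to TGATAA and likewise to TGATAG, the letters bound by GATA factors such as the product of Gata2.
Cpa3: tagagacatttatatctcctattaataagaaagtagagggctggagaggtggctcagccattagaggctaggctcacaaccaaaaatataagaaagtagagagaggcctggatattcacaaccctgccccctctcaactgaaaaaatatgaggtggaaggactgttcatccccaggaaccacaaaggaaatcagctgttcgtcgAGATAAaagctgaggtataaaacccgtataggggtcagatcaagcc
Mcpt4: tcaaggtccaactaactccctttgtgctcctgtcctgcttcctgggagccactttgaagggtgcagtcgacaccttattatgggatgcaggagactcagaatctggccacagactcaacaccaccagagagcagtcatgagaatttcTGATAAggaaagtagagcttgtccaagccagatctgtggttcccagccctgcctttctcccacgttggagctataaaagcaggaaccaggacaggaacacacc
Cma1: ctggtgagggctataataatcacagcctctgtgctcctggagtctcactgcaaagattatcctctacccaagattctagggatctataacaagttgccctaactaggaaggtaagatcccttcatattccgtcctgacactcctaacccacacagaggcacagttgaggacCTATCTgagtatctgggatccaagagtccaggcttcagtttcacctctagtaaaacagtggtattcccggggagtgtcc
Mcpt8: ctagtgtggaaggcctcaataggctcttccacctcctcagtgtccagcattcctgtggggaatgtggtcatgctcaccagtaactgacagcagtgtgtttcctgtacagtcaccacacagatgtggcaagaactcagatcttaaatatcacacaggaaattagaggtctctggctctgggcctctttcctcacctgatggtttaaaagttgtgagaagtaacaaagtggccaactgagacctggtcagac
Cpa3, Mcpt4 and Cma1 each held 1 match, at 46 to 41, 103 to 98 and 79 to 74 bases before the start, and Mcpt8 held 0. Of all 32851 promoter windows of this length, 26.54% held at least 1 match. Among the other genes, Ms4a2 held 3 matches, Fcer1a 1, Hdc 1 and the 2 listed starts of Gata2 0. The E-box CATGTG, and likewise the E-box CACGTG, searched on either strand as letters bound by the melanocyte and mast cell factor Mitf, matched among the 8 genes only in the window of Fcer1a, against 17.62% of all windows. A match is a stretch of letters and not a measured binding site.

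Of the 10 genes, 1 was higher and 1 lower in the Exercise group at a limma adjusted p under 0.05, and 8 did not pass. Over all genes, 17% passed, 6.35% higher and 10.6% lower, so the share of the 10 genes that passed was near that of all genes. With arrays centred on their medians in place of quantile normalisation the genes higher numbered 938 and the genes lower 3076, against 1266 and 2118. The gene that rose was Mcpt4, a mast cell chymase, and the gene that fell was Gata2, a transcription factor of mast cells, basophils, blood progenitors and endothelium. The median log2 change of the 10 genes, Exercise minus non-Exercise, was 0.11, against -0.02 over all genes. Their mean levels were low, from percentile 9.48 for Fcer1a to 36.3 for Gata2. The files hold no detection call, and the level of a probe set depends on its probes, so levels of different genes are not compared.

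**Figure D1:**
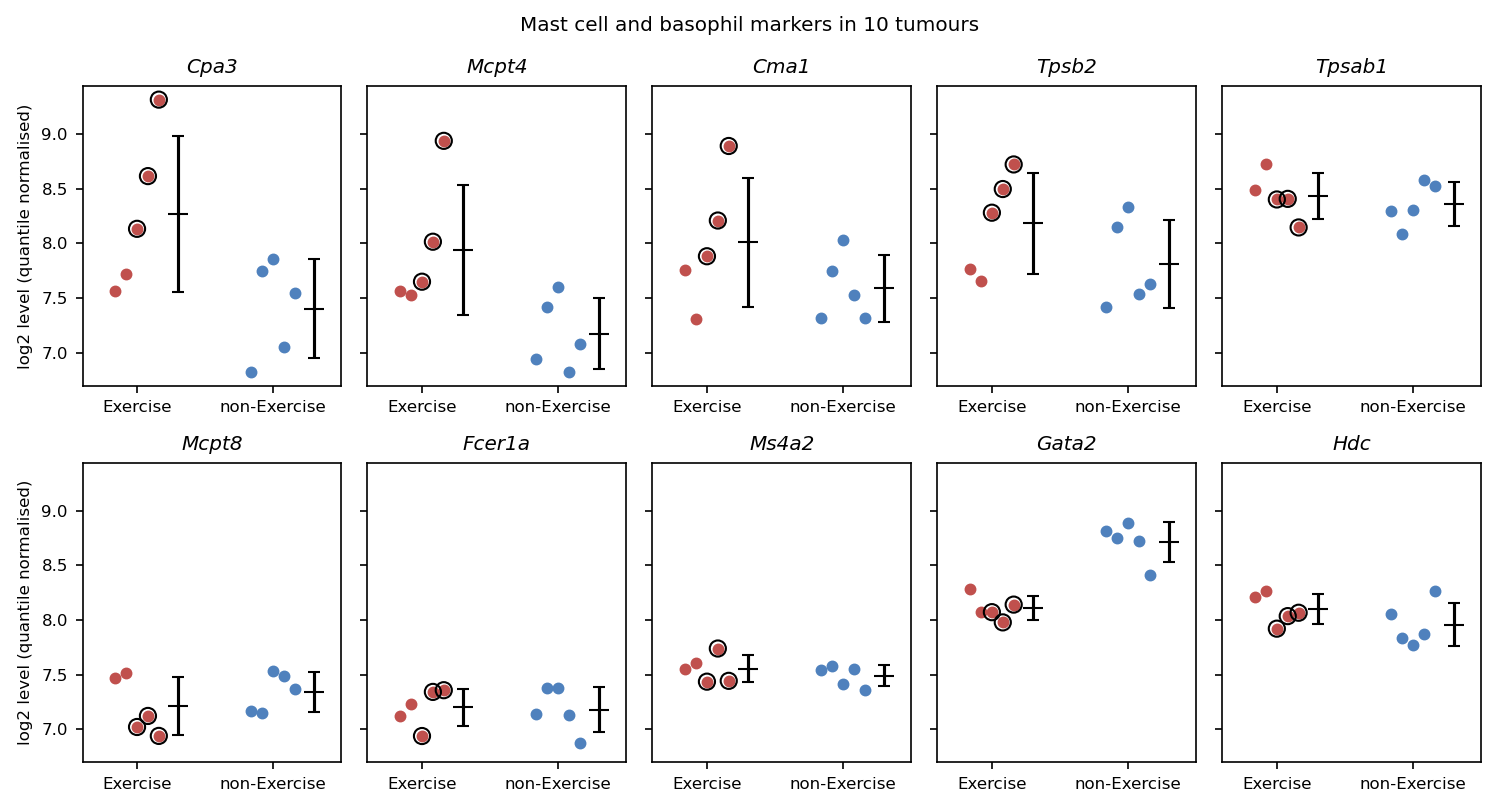
Quantile-normalised log2 level (y axis) of each of the 10 genes in the 5 Exercise and 5 non-Exercise arrays. Points are arrays, black bars are mean ± SD, and black rings mark Exercise arrays 306, 309 and 310; for Gata2 all Exercise points lie below all non-Exercise points, and for Cpa3 and Mcpt4 the ringed points lie above every non-Exercise point.

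Cpa3 encodes carboxypeptidase A3, a peptidase stored in mast cell granules. Its log2 level was 7.56, 7.72, 8.13, 8.62 and 9.32 in Exercise arrays 300, 301, 306, 309 and 310, against 6.82, 7.74, 7.86, 7.05 and 7.55 in non-Exercise arrays 326, 327, 329, 330 and 331. Arrays 306, 309 and 310 lay above every non-Exercise array, while arrays 300 and 301 lay within the non-Exercise range. The mean was 8.27 ± 0.71 in the Exercise group and 7.40 ± 0.45 in the non-Exercise group (SD, n = 5 each), a 1.82-fold difference that did not pass (log2 change 0.86 ± 0.29 (SE), limma adjusted p = 0.0569). Without Exercise array 300 or 301 it passed (1.04 and 1.0, limma adjusted p = 0.0291 and 0.0267). It did not pass when any other single array was left out (limma adjusted p up to 0.145). Without arrays 306, 309 and 310 its log2 change was 0.24 (limma adjusted p = 0.584).

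Mcpt4 encodes a chymase of connective tissue mast cells. It had log2 levels of 7.56, 7.53, 7.65, 8.02 and 8.94 in Exercise arrays 300, 301, 306, 309 and 310, against 6.94, 7.42, 7.60, 6.83 and 7.08 in non-Exercise arrays 326, 327, 329, 330 and 331. The groups overlapped through arrays 300 and 301, and array 310 was the highest of all 10. Mcpt4 averaged 7.94 ± 0.59 in the Exercise group and 7.17 ± 0.32 in the non-Exercise group (SD, n = 5 each), which was 1.70-fold higher (log2 change 0.76 ± 0.24 (SE), limma adjusted p = 0.0397). The call was lost when Exercise array 309 was left out, and likewise for 326, 327, 330 and 331 of the non-Exercise group (limma adjusted p 0.0210 to 0.1003 leaving out 1 array). Without arrays 306, 309 and 310 the log2 change of Mcpt4 was 0.37 (limma adjusted p = 0.228). Of the 10 genes 0 were then higher in limma, also at an unadjusted p under 0.05. The arrays left out were the highest of all 10 for Cpa3 and Mcpt4, and only Exercise arrays 300 and 301 remained in that group.

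Cma1 encodes a further mast cell chymase, in the same protease cluster on chromosome 14 as Mcpt4 and Mcpt8. Its log2 level was 7.76, 7.31, 7.88, 8.21 and 8.89 in Exercise arrays 300, 301, 306, 309 and 310, against 7.32, 7.75, 8.03, 7.53 and 7.32 in non-Exercise arrays 326, 327, 329, 330 and 331. Array 310 was again the highest, but array 301 was the lowest of all 10, and the log2 change of 0.42 did not pass (95% interval -0.08 to 0.92, limma adjusted p = 0.261). Tpsb2 encodes a mast cell tryptase, and its log2 level was 7.77, 7.66, 8.28, 8.50 and 8.72 in Exercise arrays 300, 301, 306, 309 and 310, against 7.42, 8.15, 8.33, 7.54 and 7.63 in non-Exercise arrays 326, 327, 329, 330 and 331. Its 2 highest arrays were 310 and 309, and its log2 change of 0.37 did not pass (95% interval -0.09 to 0.84, limma adjusted p = 0.288). Without arrays 306, 309 and 310 the log2 changes of Cma1 and Tpsb2 turned negative, at -0.06 and -0.10 (limma adjusted p = 0.893 and 0.824).

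Tpsab1, the neighbour of Tpsb2 on chromosome 17, encodes a second tryptase in some mouse strains and is listed as a transcribed pseudogene in the RefSeq annotation of the C57BL/6J genome; the sources used here do not name the strain of these mice. Its log2 level lay between 8.15 and 8.73 in the Exercise arrays (median 8.41) and between 8.08 and 8.58 in the non-Exercise arrays (median 8.31), with array 301 the highest and array 310 the lowest of the Exercise arrays. The log2 change was 0.08 (95% interval -0.18 to 0.33, limma adjusted p = 0.763), and 0.25 without arrays 306, 309 and 310 (limma adjusted p = 0.292). Tpsb2 and Tpsab1 are related genes, and the files do not say how far their probes distinguish the transcripts.

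**Figure D2:**
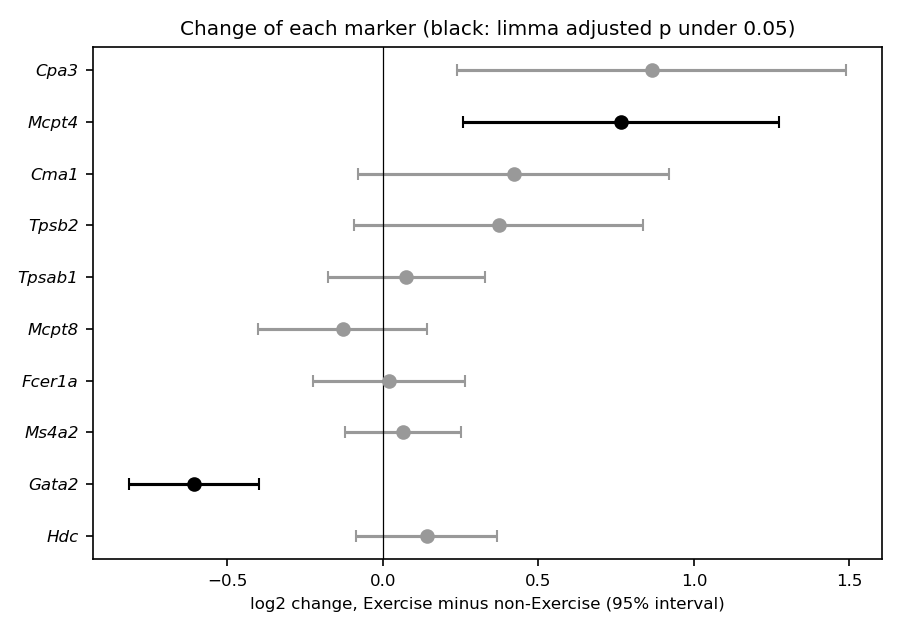
Log2 change of each of the 10 genes, Exercise minus non-Exercise (x axis), with the 95% interval of the limma fit. Mcpt4 (0.76) and Gata2 (-0.61), in black, passed the threshold; the interval of Cpa3 lies above 0, but its adjusted p of 0.0569 did not pass over all genes.

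The proteases Cpa3, Mcpt4, Cma1 and Tpsb2 varied together across the 10 arrays. Cpa3 correlated with Mcpt4 at r = 0.96 and rho = 0.94 (n = 10, permutation p = 4e-05 and 0.00016), with Tpsb2 at r = 0.92 and rho = 0.98 (n = 10, permutation p = 1e-05, the smallest that 100000 resamples give, and 3e-05) and with Cma1 at r = 0.89 and rho = 0.83 (n = 10, permutation p = 0.00063 and 0.00489). Adjusted over the 9 relations of Cpa3 with the other genes, these p were 0.00018, 9e-05 and 0.00189 for r and 0.00072, 0.00027 and 0.0147 for rho. The other pairs of the 4 genes had r from 0.86 to 0.92. In the Exercise group array 310 and then 309 held the highest level of each of the 4 genes, and in the non-Exercise group array 329 and then 327 did. Each group has only 5 arrays, too few for a correlation of its own; after each group was centred on its mean, r of Cpa3 was 0.93 with Mcpt4, 0.92 with Tpsb2 and 0.88 with Cma1.

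The relation did not rest on the extreme arrays for Mcpt4 and Tpsb2. Without Exercise array 310 and non-Exercise array 326, the 2 farthest from the median of Cpa3, r was 0.92 with Mcpt4, 0.86 with Tpsb2 and 0.71 with Cma1 (n = 8). Without Exercise arrays 306, 309 and 310 it was 0.86 with Mcpt4, 0.78 with Tpsb2 and 0.52 with Cma1 (n = 7). Among all other genes, Mcpt4 ranked 1st in its correlation with Cpa3, Tpsb2 29th and Cma1 62nd. The next genes by r over the 10 arrays were Slc8a1, a sodium and calcium exchanger (0.96), Clec9a, a lectin of dendritic cells (0.95), Lbp, the lipopolysaccharide-binding protein (0.95), and Acap1, a trafficking protein of leukocytes (0.95). No log2 change of these 4 genes passed (0.31 to 0.73, limma adjusted p 0.0621 to 0.129).

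The remaining 6 genes were not part of this pattern. Cpa3 had r = -0.37 with Tpsab1, -0.58 with Mcpt8, 0.41 with Fcer1a, 0.00 with Ms4a2, -0.63 with Gata2 and 0.00 with Hdc, and no permutation p passed after adjustment over the 9 relations (n = 10, adjusted permutation p 0.108 to 0.999 for r and 0.223 to 0.891 for rho). After centring within groups, r with Gata2 was -0.18. Without the 2 arrays farthest from the median, r was -0.31 with Tpsab1, -0.66 with Mcpt8, 0.28 with Fcer1a, 0.36 with Ms4a2, -0.56 with Gata2 and -0.06 with Hdc (n = 8). Without arrays 306, 309 and 310 it was -0.06 with Tpsab1, 0.33 with Mcpt8, 0.41 with Fcer1a, -0.19 with Ms4a2, -0.30 with Gata2 and -0.02 with Hdc (n = 7), so the sign for Mcpt8 turned.

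**Figure D3:**
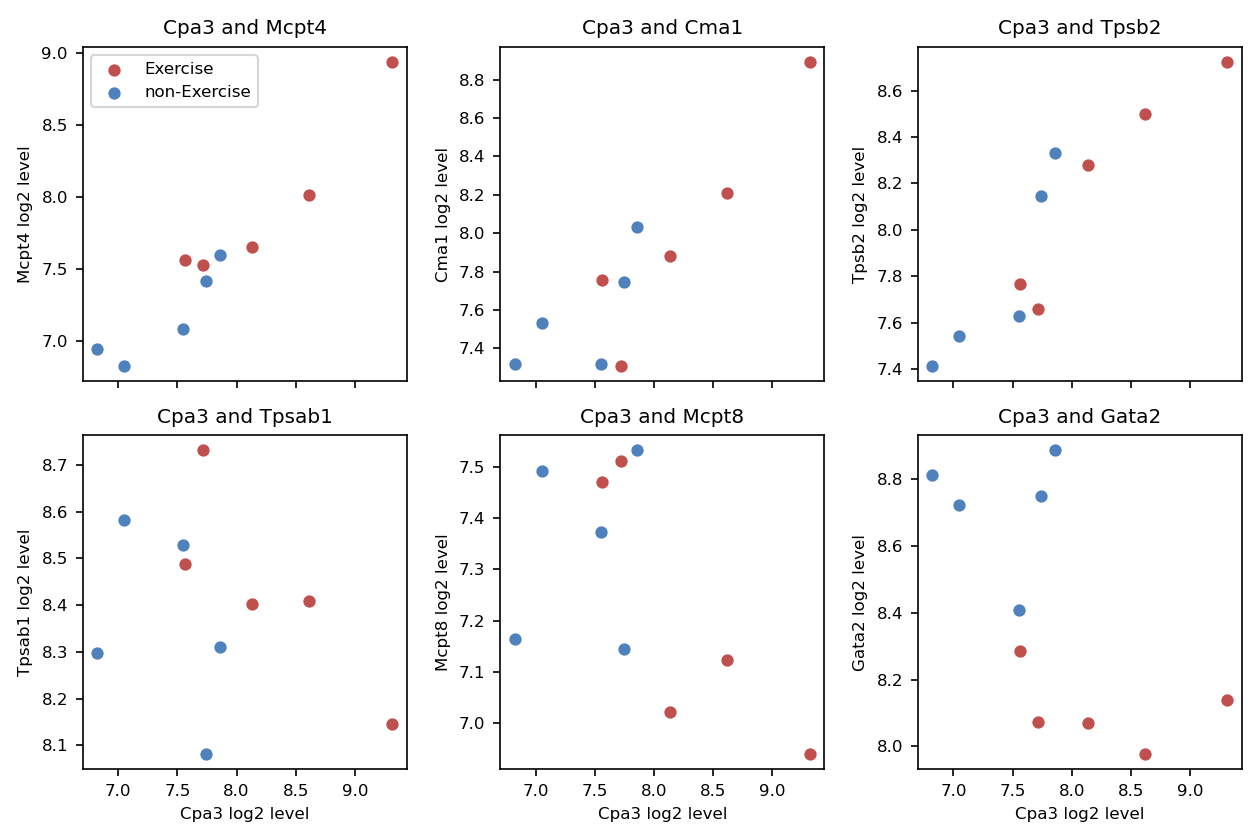
Log2 level of 6 genes (y axes) against that of Cpa3 (x axis) in 5 Exercise (red) and 5 non-Exercise (blue) arrays. Points of Mcpt4, Cma1 and Tpsb2 rise with Cpa3 (r = 0.96, 0.89 and 0.92), those of Tpsab1 and Mcpt8 do not (r = -0.37 and -0.58), and the Gata2 points of the Exercise arrays lie below the others at all levels of Cpa3.

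Cpa3 was also set against lists of genes of other tissues. The 3 Exercise arrays with the highest Cpa3 were those with hepatocyte transcripts. Of the 13 measured hepatocyte genes 3 rose and none fell, at a median log2 change of 1.20: Rbp4, Cps1 and Apoc3 (1.41, 1.16 and 1.25, limma adjusted p = 0.0183, 0.0362 and 0.0467). That count was 12 without Exercise array 300 or 301 and 1 without any other array, and without arrays 306, 309 and 310 it was 0, with 1 gene lower. The mean log2 level of 10 genes of fibroblasts and connective tissue lay between 9.52 and 10.97 in the Exercise arrays and between 8.94 and 9.85 in the non-Exercise arrays, and 6 of them rose and none fell, led by p by the collagen genes Col1a2 and Col1a1 and the microfibril gene Mfap5 (1.04, 0.99 and 1.13, limma adjusted p = 0.00436, 0.00791 and 0.00951), and 4 rose without arrays 306, 309 and 310. That of 9 adipocyte genes lay between 8.25 and 10.14 in the Exercise arrays and between 8.36 and 9.37 in the non-Exercise arrays, and 1 rose, which passed only with Exercise arrays 300, 309 and 310 and non-Exercise arrays 326, 327, 330 and 331 all included, and none fell; without arrays 306, 309 and 310, 0 were higher and 1 lower. Array 310 was the highest in both the fibroblast and the adipocyte list, while array 306, above every non-Exercise array for Cpa3, held the lowest fibroblast level of the Exercise arrays (9.52), and array 300, lowest of them for Cpa3, reached 10.43 for fibroblast and 9.39 for adipocyte genes. Within the non-Exercise group arrays 329 and 327, which held the highest protease levels, were also the 2 highest in both lists. The same order was not particular to these lists. Macrophage and endothelial markers were also highest in array 310 (10.52 and 10.08). Of the non-Exercise arrays, 327 and 329 were highest for macrophage (9.18 and 9.17) and for endothelial markers (9.78 and 9.75). Cpa3 had r = 0.83 with the fibroblast list, 0.77 with the adipocyte list, 0.76 with the hepatocyte list and 0.87 with the macrophage list (n = 10, permutation p = 0.00288, 0.00782, 0.00894 and 0.00094, adjusted over 16 lists 0.00821, 0.0179, 0.0179 and 0.00821). The rho values were 0.68, 0.61, 0.70 and 0.82 (n = 10, adjusted permutation p = 0.0793, 0.120, 0.0793 and 0.05004).

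These relations were examined after the values were seen. Of the 16 lists, 10 passed for r and 0 for rho, whose smallest adjusted p was 0.05004. High r was not particular to the tissue lists. It was 0.84 with granule storage and secretion genes and 0.84 with leukotriene and prostaglandin genes. With IgE receptor signalling genes it was 0.83, and with the other basophil genes 0.83. Without the 2 arrays farthest from the median, r was 0.60, 0.51, 0.82 and 0.77 for the fibroblast, adipocyte, hepatocyte and macrophage lists (n = 8). Without Exercise arrays 306, 309 and 310 it was 0.72, 0.50, 0.37 and 0.54 (n = 7). The highest r of the 16 lists was then 0.795, with the megakaryocyte and erythroid genes. After centring within groups, r was 0.71, 0.75, 0.62 and 0.78 for the fibroblast, adipocyte, hepatocyte and macrophage lists. With the melanocyte list r was -0.37 (rho -0.33), and 0.23 after this centring. The part of these tissues in the protease levels was not tested.

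**Figure D4:**
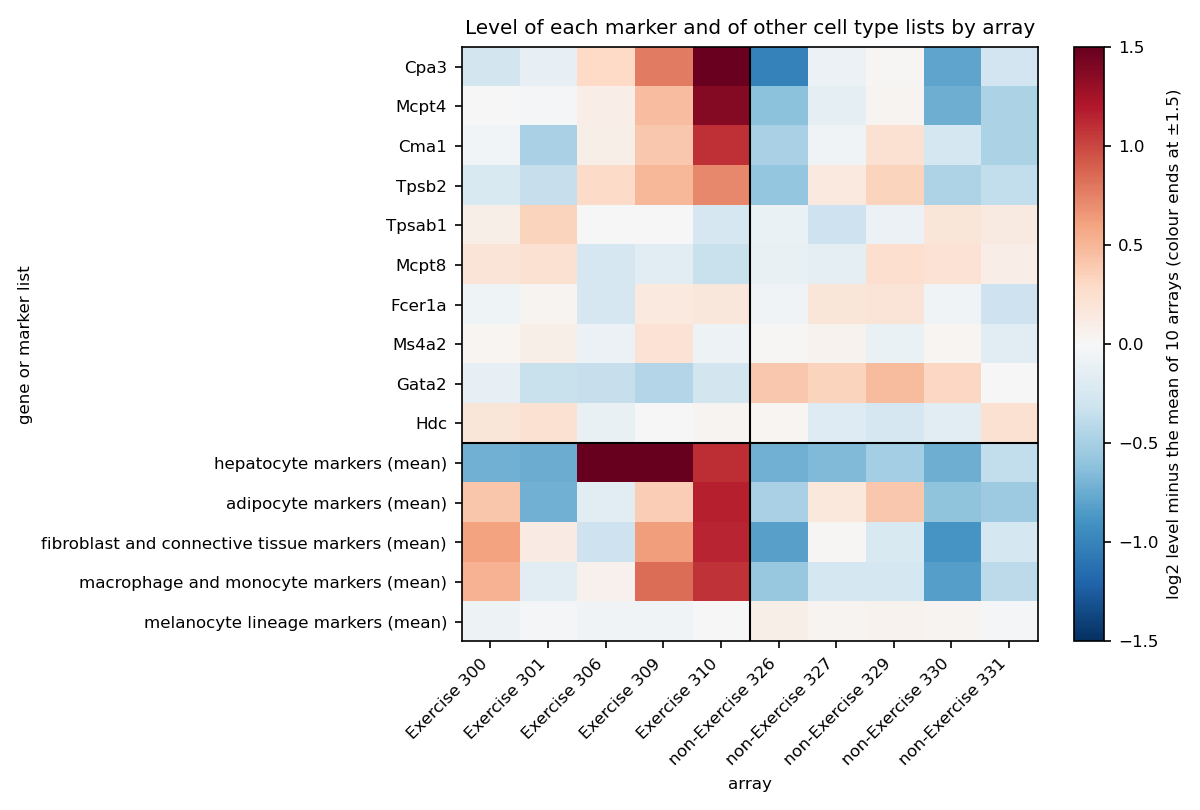
Log2 level of the 10 genes (above the line) and mean log2 level of 5 lists of other cell types (below it), each minus its mean over the 10 arrays, with Exercise arrays left of the line. Red is high and blue low. Cpa3, Mcpt4, Cma1 and Tpsb2 are highest in Exercise array 310, where the adipocyte, fibroblast and macrophage lists are also highest. Gata2 is blue in every Exercise array.

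The basophil protease gene Mcpt8 did not pass. It had log2 levels of 7.47, 7.51, 7.02, 7.12 and 6.94 in Exercise arrays 300, 301, 306, 309 and 310, against 7.16, 7.14, 7.53, 7.49 and 7.37 in non-Exercise arrays 326, 327, 329, 330 and 331. The 3 arrays with the highest Cpa3 were the 3 lowest for Mcpt8, and the groups overlapped. The log2 change was -0.13 (95% interval -0.40 to 0.14, limma adjusted p = 0.586), and 0.15 without arrays 306, 309 and 310 (limma adjusted p = 0.528). Prss34, a second basophil protease gene, and Cd200r3, a receptor of basophils and mast cells, had log2 changes of -0.01 and 0.11 (limma adjusted p = 0.964 and 0.586).

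The chains of the IgE receptor that are restricted to these cells did not pass. Fcer1a encodes the alpha chain, which binds IgE, and its log2 level lay between 6.94 and 7.36 in the Exercise arrays (median 7.23) and between 6.88 and 7.38 in the non-Exercise arrays (median 7.14). The log2 change of Fcer1a was 0.02 (95% interval -0.22 to 0.26, limma adjusted p = 0.950). Ms4a2 encodes the beta chain, which amplifies the signal, and its log2 level lay between 7.44 and 7.74 in the Exercise arrays (median 7.55) and between 7.35 and 7.58 in the non-Exercise arrays (median 7.54). Its log2 change was 0.07 (95% interval -0.12 to 0.25, limma adjusted p = 0.708). The ranges of the groups overlapped for both genes, and without arrays 306, 309 and 310 neither passed (limma adjusted p = 1.0 and 0.670).

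Fcer1g, the signalling chain of the same receptor, which macrophages and natural killer cells also use, was higher in the Exercise group. On the log2 scale it was at 11.54, 10.69, 11.61, 12.13 and 12.10 in Exercise arrays 300, 301, 306, 309 and 310, against 10.50, 10.63, 10.48, 10.17 and 10.37 in non-Exercise arrays 326, 327, 329, 330 and 331. No Exercise value fell within the non-Exercise range, and such a gap with Exercise above was found for 3.74% of all genes. Fcer1g rose by 1.18 ± 0.21 on the log2 scale (SE, limma adjusted p = 0.00185), and by 0.69 without arrays 306, 309 and 310 (limma adjusted p = 0.0227). Of the 14 measured genes of IgE receptor signalling, 8 rose and 2 fell, at a median log2 change of 0.46. Inpp5d, the lipid phosphatase SHIP1 that restrains the pathway, rose by 0.98 (limma adjusted p = 0.00502), and Plcg1, a phospholipase, fell by 0.31 (limma adjusted p = 0.000667). The count of genes higher was 2 and of genes lower 3 without arrays 306, 309 and 310.

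Many of these signalling genes are also expressed by macrophages, whose markers were higher too. Of 11 such markers 8 rose and 0 fell. Their mean log2 level lay between 9.27 and 10.52 in the Exercise arrays and between 8.61 and 9.18 in the non-Exercise arrays, without overlap. Itgam, Msr1 and Cd68 led by p (1.43, 1.17 and 0.76, limma adjusted p = 0.00114, 0.00173 and 0.00315), and the leukocyte gene Ptprc rose by 1.16 (limma adjusted p = 0.00921). Without arrays 306, 309 and 310, 5 of the macrophage genes were higher and the log2 change of Ptprc, 0.62, did not pass (limma adjusted p = 0.132). The part of macrophages in the signalling genes was not tested.

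Gata2 was the gene of the 10 with the smallest p. In order of array number it was at 8.28, 8.07, 8.07, 7.98 and 8.14 in Exercise arrays 300, 301, 306, 309 and 310, against 8.81, 8.75, 8.89, 8.72 and 8.41 in non-Exercise arrays 326, 327, 329, 330 and 331. All Exercise arrays lay below all non-Exercise arrays, which held for 8.33% of all genes. Gata2 averaged 8.11 ± 0.11 in the Exercise group and 8.72 ± 0.18 in the non-Exercise group (SD, n = 5 each), 1.52-fold lower in the Exercise group (log2 change -0.61 ± 0.10 (SE), limma adjusted p = 0.00107). The exact permutation p was 0.00794 (two-sided, n = 5 each), the smallest that the splits of 10 arrays into 5 and 5 allow. The log2 change was -0.54 without arrays 306, 309 and 310 (limma adjusted p = 0.0190) and between -0.68 and -0.56 leaving out 1 array. Endothelium also expresses Gata2. Of 12 endothelial genes 1 rose, Vwf by 0.55 (limma adjusted p = 0.000994), and none fell, and their median log2 change was 0.22. Cdh5 and Sox17 had log2 changes of 0.38 and 0.29 that did not pass, the count of genes higher was 3 without Exercise array 301 or 306, and without arrays 306, 309 and 310 the endothelial gene Eng was lower (-0.20, limma adjusted p = 0.0336). The part of endothelium in the Gata2 level was not tested.

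Hdc encodes histidine decarboxylase, the enzyme that makes histamine in mast cells, basophils and some neutrophils and macrophages. Its log2 level lay between 7.92 and 8.26 in the Exercise arrays (median 8.07) and between 7.77 and 8.26 in the non-Exercise arrays (median 7.87), and the groups overlapped. Its log2 change was 0.14 (95% interval -0.09 to 0.37, limma adjusted p = 0.442), and 0.28 without arrays 306, 309 and 310 (limma adjusted p = 0.225). None of the 7 other measured genes of histamine transport, breakdown and receptors passed in limma, and 1 had an unadjusted p under 0.05. Aoc1, which encodes diamine oxidase and had the smallest p of them, stood at a log2 change of -0.35 (limma adjusted p = 0.114).

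The other genes of mast cells, from lists written with earlier results of these data known, did not pass. Their mean levels ranged from percentile 1.14 for Mrgprb2 to 99.5 for Mitf, which melanocytes also express. Of 12 measured, 0 were higher and 0 lower in limma, and 1 had an unadjusted p under 0.05; their median log2 change was 0.02. That gene was Kit, the receptor of Kit ligand, which melanocytes also express. Its log2 level was 10.64, 10.92, 10.10, 10.40 and 10.16 in Exercise arrays 300, 301, 306, 309 and 310, against 10.78, 10.73, 10.88, 10.63 and 10.96 in non-Exercise arrays 326, 327, 329, 330 and 331. Its log2 change of -0.35 did not pass (limma adjusted p = 0.0829), passed at -0.47 without Exercise array 301 (limma adjusted p = 0.00653), and was -0.02 without arrays 306, 309 and 310. Exercise arrays 306, 309 and 310, the highest for Cpa3, were the 3 lowest of all 10 for Kit.

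Of 11 genes listed for growth and alarmin signalling of these cells, 1 rose and 1 fell, against 6.35% higher and 10.6% lower over all genes. Il33, the alarmin that activates mast cells and basophils, was at 9.53, 10.33, 8.76, 9.77 and 10.85 on the log2 scale in Exercise arrays 300, 301, 306, 309 and 310, against 8.21, 8.78, 8.67, 8.38 and 8.96 in non-Exercise arrays 326, 327, 329, 330 and 331. All but array 306 lay above every non-Exercise array. Il33 rose by 1.25 ± 0.29 (SE, limma adjusted p = 0.00979), and by 1.33 without arrays 306, 309 and 310 (limma adjusted p = 0.0020). Tgfb1, which encodes the cytokine TGF-beta 1, fell by 0.52 (limma adjusted p = 0.000973). Without arrays 306, 309 and 310, 2 genes of this list were lower, Tgfb1 and Il18, which encodes the cytokine interleukin-18 (-0.65 and -0.61, limma adjusted p = 0.000216 and 0.00421). Kitl, which encodes Kit ligand, had a log2 change of 0.38 and Csf2, which encodes GM-CSF, of -0.19, and neither passed (limma adjusted p = 0.242 and 0.169), nor without those arrays (0.14 and -0.14, limma adjusted p = 0.714 and 0.517). Il1rl1, the receptor of Il33, was not analysed here.

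The granule and lipid mediator lists changed in both directions. Srgn encodes serglycin, on which the proteases are stored in mast cells and which other leukocytes also make, and it rose by 1.19 ± 0.19 (SE, limma adjusted p = 0.00109). Of 12 genes of granule storage and secretion 2 rose and 2 fell, with Stx3, a membrane fusion protein, at 0.44 (limma adjusted p = 0.00401) and Rab27a, a vesicle GTPase that also moves melanosomes, at -0.28 (limma adjusted p = 0.0102). Of 11 genes of leukotriene and prostaglandin synthesis and their receptors 3 rose and 1 fell, with Alox5ap, needed for leukotriene synthesis, at 1.06 (limma adjusted p = 0.00169), Ptgs2, which encodes COX-2, at 0.92 (limma adjusted p = 0.0157) and Lta4h, which makes leukotriene B4, at -0.19 (limma adjusted p = 0.0368). The count of granule genes lower was 1 without non-Exercise array 326, 327 or 329, and Lta4h did not pass once any of Exercise arrays 300, 309 and 310 was dropped, nor after dropping any of 326, 330 and 331 from the non-Exercise group. Without arrays 306, 309 and 310, Stx3 (0.34) and Lta4h (-0.17) did not pass.

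Of 13 genes listed for basophils, 5 rose and none fell, against 6.35% higher and 10.6% lower over all genes. Other leukocytes also express genes of this list, and their part in the rise was not tested. Runx1, a transcription factor of blood cells, rose by 0.90 (limma adjusted p = 0.000304), and Csf2rb and Csf2rb2, receptor chains for interleukin-3 and related cytokines, by 1.01 and 0.84 (limma adjusted p = 0.00146 and 0.00564). For these 3 genes the lowest Exercise value exceeded the highest non-Exercise value, which held for 3.74% of all genes. The other 2 were Cebpa, a myeloid transcription factor, and the activation marker Cd69 (0.54 and 0.47, limma adjusted p = 0.0388 and 0.0479). The count was 3 without arrays 306, 309 and 310, and it was likewise 3 after dropping any of Exercise arrays 300, 309 and 310, or any of 326, 329, 330 and 331 from the non-Exercise group.

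**Figure D5:**
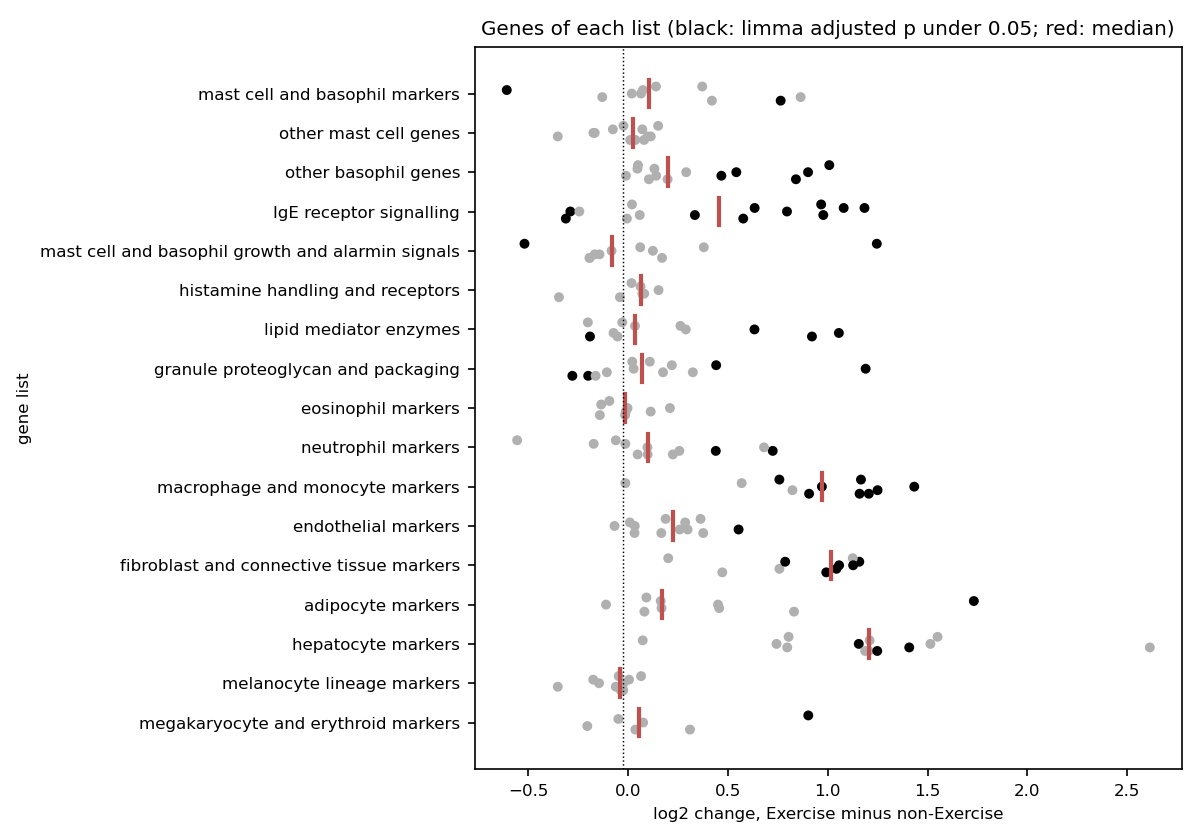
Log2 change of each measured gene, Exercise minus non-Exercise (x axis), by gene list; black points passed the limma threshold, red ticks are list medians and the dotted line is the median of all genes (-0.02). The mast cell and basophil genes spread from -0.61 to 0.86, the other mast cell genes hold no black point, and the macrophage and fibroblast lists have medians of 0.97 and 1.02.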

How the data were processed

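Affymetrix whole-transcript arrays were used for 10 melanoma RNA samples of male mice. Either of 2 RNeasy kits was used for a sample, per the labels' protocols, which do not say which; the RNA was amplified and biotin-labelled. Per the submitters' processing notes the authors summarised probe sets with PLIER, version not given. The deposited values, from 4.66 to 14.55 with array medians of 8.64 to 8.77, were taken as log2; the sources used here do not give the log base, a constant or how arrays were scaled.

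The table was quantile normalised with limma 3.58.1 in R 4.3.3. Of 35556 probe sets, 21789 had 1 gene symbol, 1621 several, and 12146 none in the platform table; symbols were checked by Entrez ID and 0 changed. A gene kept its probe set with the highest mean, giving 19938 genes. Groups were taken from the titles and compared by limma's two-sided moderated test (lmFit, then eBayes using the intensity trend), with adjustment by Benjamini-Hochberg over all genes at 0.05. Correlations used 100000 resamples. The code was tested on simulated data. No scan date was used here, so no batch was tested, and the number of arrays limits precision. No pair of arrays was a copy: at most 1 value was shared exactly.

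The genes and lists were chosen with earlier results of these data known. Named are all 10 genes, up to 3 genes with the smallest p in each list, 9 fixed genes, Alb, and the 5 genes most correlated with Cpa3. Pmel, Tyrp1, Dct, Cebpa, Cd69, Il18, Eng, Mrgprb2 and Mitf were named after their values were seen. Alternatives were the deposited table, median centring, a filter on dim genes, other uses of probe sets, other variance models, array weights, exact permutation, a threshold of 0.10 and leaving out arrays. Promoters are from RefSeq (GRCm38.p6). Python 3.11.15 and matplotlib 3.10.9 drew the figures.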

Additional observations from a re-analysis of the deposited data

How the results depend on the processing

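Gata2 was the 1 gene lower in the Exercise group under every alternative run (log2 change -0.68 to -0.54). The count of 1 higher gene was 2, Cpa3 and Mcpt4, with the table as deposited, with median centring and at an adjusted p threshold of 0.10. It was 0 without the intensity trend, with robust variances, with array weights (2 higher at an unadjusted p under 0.05 in each), without Exercise arrays 306, 309 and 310, and without genes in the lowest 25% of mean level, a filter that removed 6 of the 10 genes, Cpa3 and Mcpt4 among them. It lay between 0 and 2 leaving out 1 array. Leaving out Exercise arrays 306, 309 and 310 gave 746 genes higher over all genes, against 1266. Without these 3 arrays the signs of Cma1 (-0.057), Tpsb2 (-0.10), Mcpt8 (0.15) and Prss34 (0.083) turned. Fcer1a turned to -0.052 with array weights, and lay between -0.056 and 0.085 leaving out 1 array. Prss34 turned to 0.053 with the deposited table and 0.011 with array weights, and lay between -0.033 and 0.026 leaving out 1 array. None of these genes passed under either sign. Il33 (limma adjusted p = 0.0579) and Ptprc (limma adjusted p = 0.0554) did not pass with robust variances, and Kit passed with median centring (-0.43, limma adjusted p = 0.0232). The cause of these shifts was not tested. No paired analysis was possible because the groups share no replicate number. Most of the 10 genes lie at low levels, where changes may be understated, and whether this held here was not tested.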

Other observations

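Markers of other granulocytes and of platelets were measured on the same arrays. None of 8 eosinophil genes passed in limma, 1 had an unadjusted p under 0.05, and the median log2 change was -0.01; Siglecf, a surface lectin of eosinophils and some macrophages, had the smallest p (0.21, limma adjusted p = 0.145). Of 12 neutrophil genes 2 rose and none fell, the receptor gene Csf3r by 0.73 (limma adjusted p = 0.00271) and the collagenase gene Mmp8 by 0.44 (limma adjusted p = 0.0395). The mean log2 level of the neutrophil list lay between 7.56 and 8.04 in the Exercise arrays and between 7.58 and 7.78 in the non-Exercise arrays, with array 301 the highest and array 306 the lowest of all 10. The count of neutrophil genes higher was 1 when any array but Exercise 306 or non-Exercise 327 was left out, and 1 gene was lower without Exercise array 310, without non-Exercise array 326 or 330, with median centring and with array weights. The granule gene Ltf stood at -0.55, short of the threshold (limma adjusted p = 0.0562). Of 6 measured megakaryocyte and erythroid genes 1 rose, Pf4, a chemokine of platelets and some macrophages (0.90, limma adjusted p = 0.0397), and none fell. Its call was lost when any array but Exercise 306 or non-Exercise 327 was left out.

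The count of neutrophil genes that were higher was 4 without Exercise arrays 306, 309 and 310, while Pf4 then changed by 1.32 (limma adjusted p = 0.00398). In the adipocyte list the 1 gene that rose was Retn, the adipokine resistin (1.73, limma adjusted p = 0.0458), which did not pass without those arrays (1.11, limma adjusted p = 0.256). None of the 10 melanocyte genes passed in limma, and 3 had an unadjusted p under 0.05, all with a negative change. These were Tyr (-0.17), Sox10 (-0.14) and Kit (-0.35), with limma adjusted p from 0.0598 to 0.0935. Without arrays 306, 309 and 310, Sox10 was lower (-0.22, limma adjusted p = 0.0264). Of the melanocyte list, 1 gene was lower when Exercise array 301, 306 or 310 was left out and 3 with median centring, and 1 eosinophil gene was higher with Exercise array 310 left out.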
